A study of Mus musculus with 4 samples.

Results

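Intronic Wapal-binding sites of long genes were 1597 of 8323 sites in mouse embryonic stem cells (ESCs), or 19.2% (95% Wilson interval 18.4 to 20.1%). A site was a region of the FB Wapal list that shared no base with a region of the BirA list, which removed 174 of 8497 regions. A site was counted here when its centre lay over 2000 bp from every annotated transcription start site (TSS) and in no exon, and when the longest gene around the centre spanned at least 100 kb. Genes were those of GENCODE release M1 on mm9. The other sites were 1177 in introns of shorter genes, 4505 extragenic, 824 within 2 kb of a TSS and 220 in exons.

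The series held 4 libraries of chromatin from 129SVJ-derived ESCs grown on gelatin. BirA is a ligase that attaches biotin to a protein with a short tag, so that streptavidin beads recover the protein together with its DNA. Wapal ChIP was sequenced from 2 independently derived clones that expressed BirA and Flag/Bio (FB) tagged Wapal, and control ChIP from 1 line that expressed BirA without tagged Wapal, which the labels equate with an IgG control. The remaining library was input, genomic DNA sheared without a pulldown. Tagged Wapal was made from an introduced cDNA in cells that already carried BirA, and each line was grown from a single colony, so the sites describe the tagged protein in clones. Both clones share 1 deposited list, so no spread between clones could be given, and regions in a list are not replicates. Intervals below therefore cover counting error only, and differences between classes of sites are given as intervals with no p-value. The list gives no read counts, so the precision of a single region is unknown, and it holds no measure by which the labelled cell type could be checked.

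Cohesin is a ring-shaped complex that holds sister chromatids together and extrudes loops of chromatin in interphase. Wapal opens the ring and takes cohesin off DNA. CTCF is a zinc finger protein that stops cohesin at its motif, and because the motif has a direction, loops form mostly between motifs that point at each other. Long mammalian genes consist mostly of introns, and many of them encode neuronal adhesion molecules, channels and scaffolds.

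The motif windows of the 10 highest-scoring sites are shown because they place the CTCF core motif, a 12-base core searched on both strands, inside the sites that stand out most. Each window is mm9 sequence read 5′ to 3′ on the strand that carries the best match, with the core in capitals.
Grb10, chr11:11873595-11873636, reverse strand: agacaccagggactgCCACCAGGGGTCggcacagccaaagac
4930448N21Rik, chr8:48456254-48456295, reverse strand: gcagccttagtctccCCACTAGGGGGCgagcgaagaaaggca
Kcnt2, chr1:142428282-142428323, reverse strand: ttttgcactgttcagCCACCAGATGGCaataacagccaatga
Dner, chr1:84467103-84467144, reverse strand: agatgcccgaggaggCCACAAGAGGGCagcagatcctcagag
Pak7, chr2:135974873-135974914, forward strand: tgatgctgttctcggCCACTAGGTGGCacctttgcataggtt
Zfp385b, chr2:77547502-77547543, reverse strand: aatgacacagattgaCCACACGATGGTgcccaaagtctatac
Klf12, chr14:100294123-100294164, reverse strand: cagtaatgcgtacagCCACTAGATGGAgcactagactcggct
Egflam, chr15:7176430-7176471, reverse strand: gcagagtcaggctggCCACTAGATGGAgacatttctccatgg
A830018L16Rik, chr1:11647961-11648002, forward strand: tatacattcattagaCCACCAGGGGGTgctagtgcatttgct
Galnt7, chr8:60052805-60052846, forward strand: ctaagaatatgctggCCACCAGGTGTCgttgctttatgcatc
Of these 10 windows, 3 held the exact core (4930448N21Rik, Kcnt2 and Pak7) and 6 differed from it at 1 base. The window of Zfp385b differed at 3 bases and is shown as the exception. The sites in 4930448N21Rik and Zfp385b each had 2 equally good matches, and the one nearest the centre is shown. A match describes the sequence and is not evidence that CTCF was bound.

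Regions carry the MACS score, which equals -10 times the log10 of the p-value of the region. The highest score, 562, belonged to a site of 982 bp on chromosome 11 (11872993 to 11873974) in an intron of Grb10, which encodes an imprinted adaptor that restrains insulin and growth factor signalling. Its centre was 2.84 kb from the nearest TSS and 65.2 kb from the start of the gene. A RIKEN transcript, 4930448N21Rik, held the next site, with a score of 478 and a width of 1872 bp. Kcnt2, a sodium-activated potassium channel, had a site with a score of 413 that lay 88.6 kb from any TSS. In Dner, a neuronal membrane protein of the Notch ligand type, the site scored 409 and the nearest TSS was 186 kb away. The other 6 had scores of 386 (Pak7, a p21-activated kinase), 381 (Zfp385b, a zinc finger protein), 380.1 (Klf12, a Kruppel-like repressor), 366 (Egflam, a matrix protein of photoreceptor synapses), 359 (A830018L16Rik) and 358 (Galnt7, an enzyme of O-glycosylation). The 10 sites lay on 6 chromosomes and in 10 different genes.

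Over all 1597 sites the median score was 80.3 (95% interval 78.1 to 83.4), with quartiles of 61.4 and 116 and a range from 50.0 to 562. The median was 77.6 (75.6 to 80.3) in introns of shorter genes and 84.0 (82.5 to 85.3) at extragenic sites. A score of at least 100 was reached by 546 of the sites in long genes, 34.2%, against 34.6% of all sites. Shorter genes reached it in 29.8% and extragenic sites in 37.0%. The difference from shorter genes was 4.37 percentage points (95% interval 0.848 to 7.84), and that from extragenic sites was -2.81 points (-5.51 to -0.0695). Their median width was 791 bp (784 to 799), against 824 bp in shorter genes and 806 bp at extragenic sites, and only 2.13% were under 500 bp. GC content was lowest in long genes, with a median of 43.1% (42.8 to 43.3), against 44.7% in shorter genes and 44.3% at extragenic sites.

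The first comparison asked whether introns of long genes held as many sites as other bases. They made up 22.1% of the sequenced bases, 566.5 Mb by the same rule of position, and held 2.82 sites per Mb (95% Poisson interval 2.68 to 2.96). Introns of shorter genes held 3.95 per Mb (3.73 to 4.18) and extragenic bases 3.12 per Mb (3.03 to 3.21). The ratio of long to shorter genes was 0.714 (0.662 to 0.770), and the ratio to extragenic bases was 0.904 (0.853 to 0.957). Exact CTCF core motifs were counted over the same bases. Introns of long genes held 4.36 of them per Mb, those of shorter genes 7.10 and extragenic bases 4.21, so the ratio of long to shorter genes was 0.615 (0.580 to 0.652) for the motif.

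**Figure D1:**
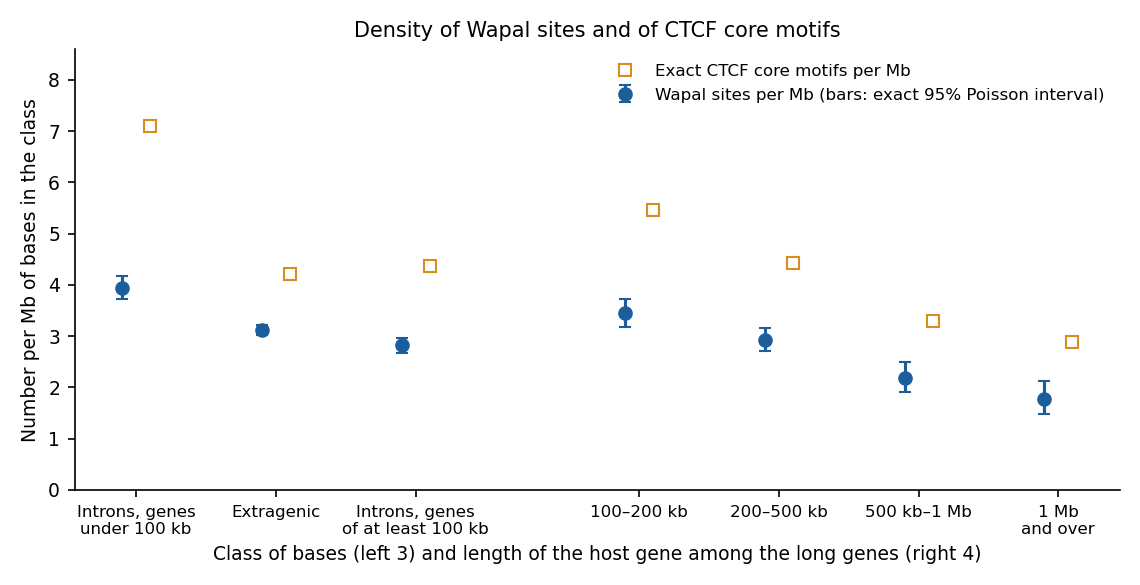
Wapal sites (filled circles, bars are exact 95% Poisson intervals) and exact CTCF core motifs (open squares) per Mb of bases, for classes of bases on the left and for long genes by length on the right. Both quantities are lower in long than in shorter genes and fall with gene length, from 3.45 to 1.78 sites per Mb and from 5.47 to 2.89 motifs per Mb.

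Within the long genes, density fell with the length of the host gene. Genes of 100 to 200 kb held 3.45 sites per Mb (3.18 to 3.73) and genes of 200 to 500 kb held 2.92 (2.70 to 3.16). The value was 2.19 (1.91 to 2.50) for 500 kb to 1 Mb and 1.78 (1.49 to 2.12) for 1 Mb and over. Exact motifs per Mb fell over the same bins, from 5.47 and 4.42 to 3.30 and 2.89. The share of these motifs that lay in a site stayed between 16.7% and 21.1% with no order by length. The longest bin depended on gene models, as described with the host genes.

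The share of exact motifs of the genome that lay inside a site was 18.7% (17.2 to 20.2%) in introns of long genes, 461 of 2472, against 18.9% over all bases. It was 16.3% (14.8 to 17.95%) in shorter genes and 22.3% (21.2 to 23.3%) in extragenic bases. Long genes exceeded shorter genes by 2.34 percentage points (0.127 to 4.53) and were below extragenic bases, with a difference of -3.60 points (-5.43 to -1.71). Motifs with 1 mismatch lay in a site in 2.24% of 40410 cases in long genes, against 2.35% over all bases. The share was 2.11% in shorter genes and 2.54% in extragenic bases. Here the difference from shorter genes was 0.132 points (-0.0791 to 0.342), which counting error covers.

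Seen from the sites, 1202 of 1597 held the core motif with at most 1 mismatch, 75.3% (73.1 to 77.3%), against 74.5% of all sites. Windows of the same width 5 kb to either side of each site held it in 8.08% (7.18 to 9.07%) of 3194 cases. The share was 77.6% in shorter genes and 75.03% at extragenic sites. The exact core was present in 28.4% of the sites in long genes and in 28.3% of all sites. With at most 2 mismatches the shares were 96.3% and 96.5%. Flanking windows were counted for at most 1 mismatch alone, so these shares have no such background. The best match lay at a median of 38.5 bp from the centre of the site, and within 100 bp of it in 983 of the 1202, or 81.8%.

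Outside the core, letters were most uneven at the same positions in long genes as in the other classes. The base directly after the core was A in 57.4% of 1202 windows, against 57.9% in shorter genes and 55.9% at extragenic sites. The base 12 before the core was T in 54.2%, against 52.3% and 54.6%. Near-copies of a window, with at most 6 differing bases over 42, were found at another site for 78 of 1202 windows, or 6.49% (5.23 to 8.03%), against 7.34% in shorter genes and 5.77% at extragenic sites. The window with the most near-copies had 24.

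No match with at most 2 mismatches was found in 59 of the 1597 sites in long genes, against 292 of all 8323 sites. The highest-scoring of them, listed after their values were seen, lay in Zfp385b (381), Ank3 (208) and Ppfia2 (207), followed by Gm20388 (138) and Kazn (131). Ank3 encodes ankyrin-G, which anchors channels at the axon initial segment, and Ppfia2 encodes a liprin of the presynaptic active zone. The scores of these named sites were all above the third quartile of the sites in long genes. They were picked for high scores, so this does not describe the 59 sites as a set.

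The direction of the motif was compared with the direction of the host gene. Among 1121 sites with a single best match of at most 1 mismatch, 494 had the motif on the strand of the gene, 44.1% (41.2 to 47.0%). In shorter genes the share was 47.6% (44.2 to 50.9%), a difference of -3.48 percentage points (-7.93 to 0.973) that the counting error covers. Motifs with 1 mismatch that lay outside sites in the same introns were on the strand of the gene in 50.3% (49.8 to 50.8%). Between exact motifs the difference was smaller. Sites with an exact match had it on the strand of the gene in 44.5%, against 48.1% of exact motifs outside sites, a difference of -3.62 points (-8.66 to 1.51). Genes on the plus strand of the chromosome gave 44.0% and those on the minus strand 44.1%.

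The share depended on where in the gene the site lay. Between its start and its midpoint 53.3% (48.9 to 57.6%) of 505 motifs were on the strand of the gene, and from its midpoint to its end 36.5% (32.8 to 40.4%) of 616. The difference was 16.7 percentage points (10.9 to 22.4). Over 10 equal bins along the gene the share was 61.7% and 67.1% in the bins nearest the start, and 34.1% and 27.5% in the bins nearest the end. Motifs in both outer parts thus pointed into the gene more often than out of it. The bins between ran from 51.3% to 38.9%, with intervals that overlapped those of their neighbours.

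**Figure D2:**
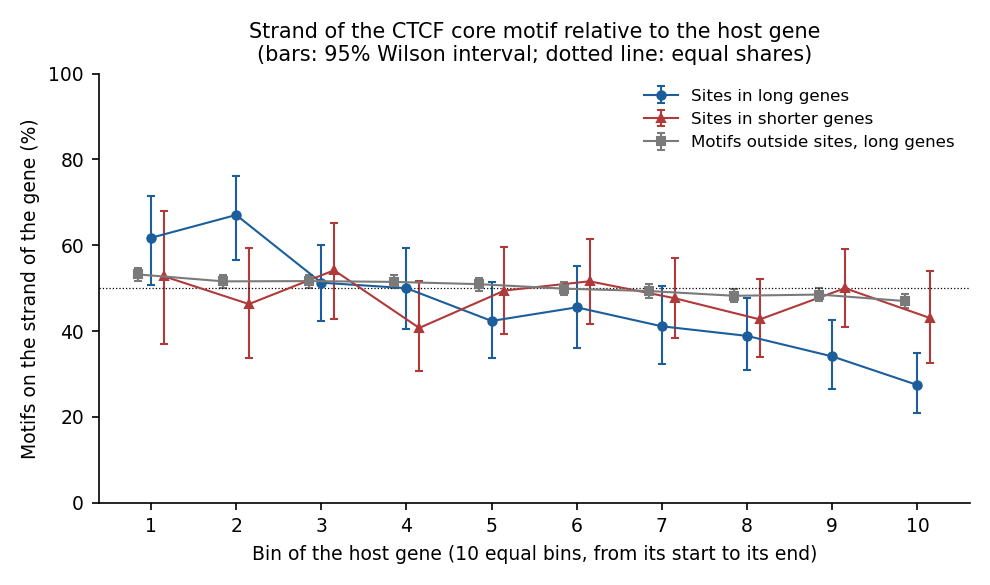
Share of CTCF core motifs on the strand of the host gene in 10 equal bins along the gene, with 95% Wilson intervals, for sites in long genes, sites in shorter genes and motifs of long genes outside sites. Sites in long genes go from 61.7% in the first bin to 27.5% in the last, whereas motifs outside sites go from 53.2% to 47.0%.

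Sites in shorter genes gave 48.2% before the midpoint and 47.1% after it, a difference of 1.09 points (-5.79 to 7.96). The difference across the midpoint was larger in long genes than in shorter genes by 15.7 points (6.65 to 24.7). Exact motifs outside sites in the same long-gene introns also differed across the midpoint, with 51.5% and 45.1%, a difference of 6.41 points (2.04 to 10.8). For motifs with 1 mismatch outside sites it was 3.003 points (2.02 to 3.99). Exact motifs inside sites gave 56.2% and 36.2%, a difference of 20.1 points (10.9 to 28.8). Read as occupancy, 22.1% (19.3 to 25.2%) of exact motifs opposite to the gene lay in a site after the midpoint, against 16.4% (13.6 to 19.6%) of those on its strand, with intervals that overlap slightly. Before the midpoint the values were 16.1% for the opposite strand and 18.8% for the strand of the gene, also with overlapping intervals. For motifs with 1 mismatch after the midpoint the shares were 2.99% (2.68 to 3.34%) opposite and 1.94% (1.69 to 2.24%) on the strand of the gene. Shorter genes had the same direction there, with 2.92% (2.58 to 3.31%) and 2.20% (1.91 to 2.52%).

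The difference across the midpoint was 19.0 points (9.64 to 28.1) in genes of 100 to 200 kb and 15.2 points (5.81 to 24.2) in genes of 200 to 500 kb. It was 15.7 points (-0.403 to 30.6) from 500 kb to 1 Mb and 10.7 points (-8.58 to 29.0) at 1 Mb and over, where fewer sites left intervals that include 0. Sites of the same gene share their surroundings, so genes with a single such site were taken alone. There, 52.8% of 254 motifs before the midpoint and 29.5% of 359 after it were on the strand of the gene, a difference of 23.2 points (15.4 to 30.8).

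Site density also changed along the gene. The part before the midpoint held 707 sites on 50.7% of the bases, 2.46 per Mb (2.29 to 2.65), and the part after it 890 sites, 3.19 per Mb (2.98 to 3.40). The ratio of the later to the earlier part was 1.29 (1.17 to 1.43) for sites and 1.19 (1.10 to 1.29) for exact motifs. The first of 10 equal bins held 2.17 per Mb (1.80 to 2.61) and the last 4.44 (3.88 to 5.06), while exact motifs went from 3.65 to 6.37 per Mb. Bases within 2 kb of a TSS are excluded from both counts.

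**Figure D3:**
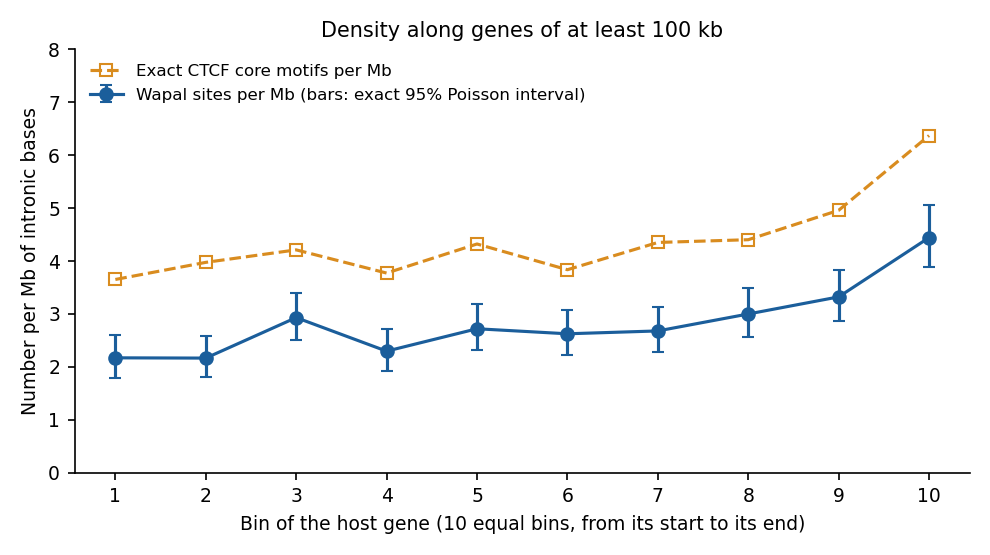
Wapal sites (filled circles, bars are exact 95% Poisson intervals) and exact CTCF core motifs (open squares) per Mb of intronic bases, in 10 equal bins along the host gene from start to end. Both are highest in the last bin, at 4.44 sites and 6.37 motifs per Mb.

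First introns held 319 sites, 20.0% of the total on 25.1% of the bases, or 2.25 per Mb (2.01 to 2.51). Other introns held 1278, or 3.01 per Mb (2.85 to 3.18). Of the exact motifs in first introns 14.6% lay in a site, against 19.8% in other introns. Short introns of long genes were the densest. Introns under 10 kb held 5.11 sites per Mb (4.63 to 5.63), those of 10 to 50 kb held 3.13 and those of 50 to 100 kb held 2.35. Introns of 100 to 200 kb held 1.97 (1.72 to 2.23) and those of 200 kb and over 2.00 (1.73 to 2.31), with overlapping intervals. Exact motifs per Mb fell over the 5 groups, from 7.46 to 3.30. The share of them in a site was 22.9% and 20.2% in the 2 shortest groups and 15.6%, 14.9% and 16.6% in the others. By distance to the nearest TSS the density went from 3.61 per Mb at 2 to 5 kb to 1.956 beyond 100 kb, where 196 sites lay.

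At the edge of the rule for length, the shortest host genes that counted were Scel (100006 bp) and Cpe (100483 bp), and the longest that did not were 1700101E01Rik (99692 bp) and Gm281 (99530 bp). The nearest included centres lay 2023 bp (Ube2cbp) and 2024 bp (Osbp2) from a TSS, and the nearest excluded ones 1970 bp (Utrn) and 1968 bp (Kif5c).

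Of 2505 genes of at least 100 kb, 1053 held a site in an intron, 42.04% (40.1 to 44.0%). The share was 33.1% for 100 to 200 kb, 52.2% for 200 to 500 kb, 65.4% for 500 kb to 1 Mb and 78.8% (66.0 to 87.8%) for 1 Mb and over. Most hosts, 708 of them, held 1 site, whereas 233 held 2 and 112 held at least 3. Protein-coding genes were the hosts of 1546 sites and lincRNA genes of 33. The centre of 59 sites lay in more than 1 gene body, where the longest gene was taken. A site within 2 kb of the gene's own annotated starts was present for 5.22% of the genes with an intronic site and for 4.96% of those without, which counting error covers.

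The host with the most sites by the rule was Gm20388 with 18, followed by Fgfr2, a fibroblast growth factor receptor, with 12. Both counts rest on single annotated transcripts with very long introns. The intron of Gm20388 spans 4384 kb and encloses 72 whole protein-coding genes, and that of Fgfr2 spans 2957 kb and encloses 31. All 12 sites of Fgfr2 lay in that model, and 104 kb of the gene remained without it. When transcripts with an intron around at least 5 whole protein-coding genes were left out, 1563 of the 1597 sites still counted, 28 became extragenic and 6 fell in shorter genes. The density in genes of 1 Mb and over was then 1.49 per Mb (1.20 to 1.82).

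Without these models Pde4d, a phosphodiesterase that degrades cyclic AMP, held the most sites, 11 in 1434 kb of eligible intron, or 7.67 per Mb. Its scores ran from 55.7 to 235, and the sites lay between 761 and 1329 kb from the start of a gene of 1504 kb. The first 50.6% of Pde4d thus held no intronic site by the rule, and sites in exons or near a TSS were not counted. Of the 11 sites, 8 held the core motif with at most 1 mismatch, and their windows show both strands and little sequence in common outside the core.
Pde4d, chr13:110019530-110019571, forward strand: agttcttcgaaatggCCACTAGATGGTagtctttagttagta
Pde4d, chr13:110338110-110338151, reverse strand: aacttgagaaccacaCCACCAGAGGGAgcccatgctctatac
Pde4d, chr13:110348588-110348629, forward strand: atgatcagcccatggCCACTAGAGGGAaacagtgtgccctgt
Pde4d, chr13:110400170-110400211, reverse strand: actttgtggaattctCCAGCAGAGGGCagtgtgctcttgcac
Pde4d, chr13:110406297-110406338, forward strand: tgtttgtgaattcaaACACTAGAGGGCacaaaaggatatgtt
Pde4d, chr13:110526681-110526722, reverse strand: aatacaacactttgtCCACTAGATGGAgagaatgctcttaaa
Pde4d, chr13:110549586-110549627, reverse strand: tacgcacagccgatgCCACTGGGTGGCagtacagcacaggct
Pde4d, chr13:110566477-110566518, forward strand: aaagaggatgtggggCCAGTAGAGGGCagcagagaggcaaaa
Pde4d lies on the forward strand of chromosome 13 (109240142 to 110743669), so windows on the forward strand carry the motif in the direction of the gene. The site of the window at 110338110 had 2 equally good matches, and the one nearest the centre is shown. The highest score in the gene, 235, belonged to the site of the first window, whose motif lies in the direction of the gene. Of the 5 exact core motifs in its introns 2 lay in a site, where 18.7% did over all introns of long genes.

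Rabgap1l, a Rab GTPase-activating protein, held 7 sites in 546.7 kb with scores from 63.3 to 189, and Etl4, also known as Skt, held 7 in 808.7 kb with scores from 65.4 to 307. Fam155a, a subunit of the NALCN sodium leak channel, held 6 in 556.8 kb with scores from 54.2 to 188. Their sites were spread over most of the gene in Rabgap1l and began at 33.3% of the length in Etl4 and at 33.8% in Fam155a. In Fam155a, with 4 oriented motifs, those at 191 and 319 kb from the start were on the strand of the gene and those at 422 and 538 kb were on the opposite strand. Rabgap1l did not show this order, with a motif opposite to the gene at 6.02% of its length and one on its strand at 72.3%. In Pde4d, where all intronic sites lay after the midpoint, 4 of 7 motifs with a single best match were on the strand of the gene.

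**Figure D4:**
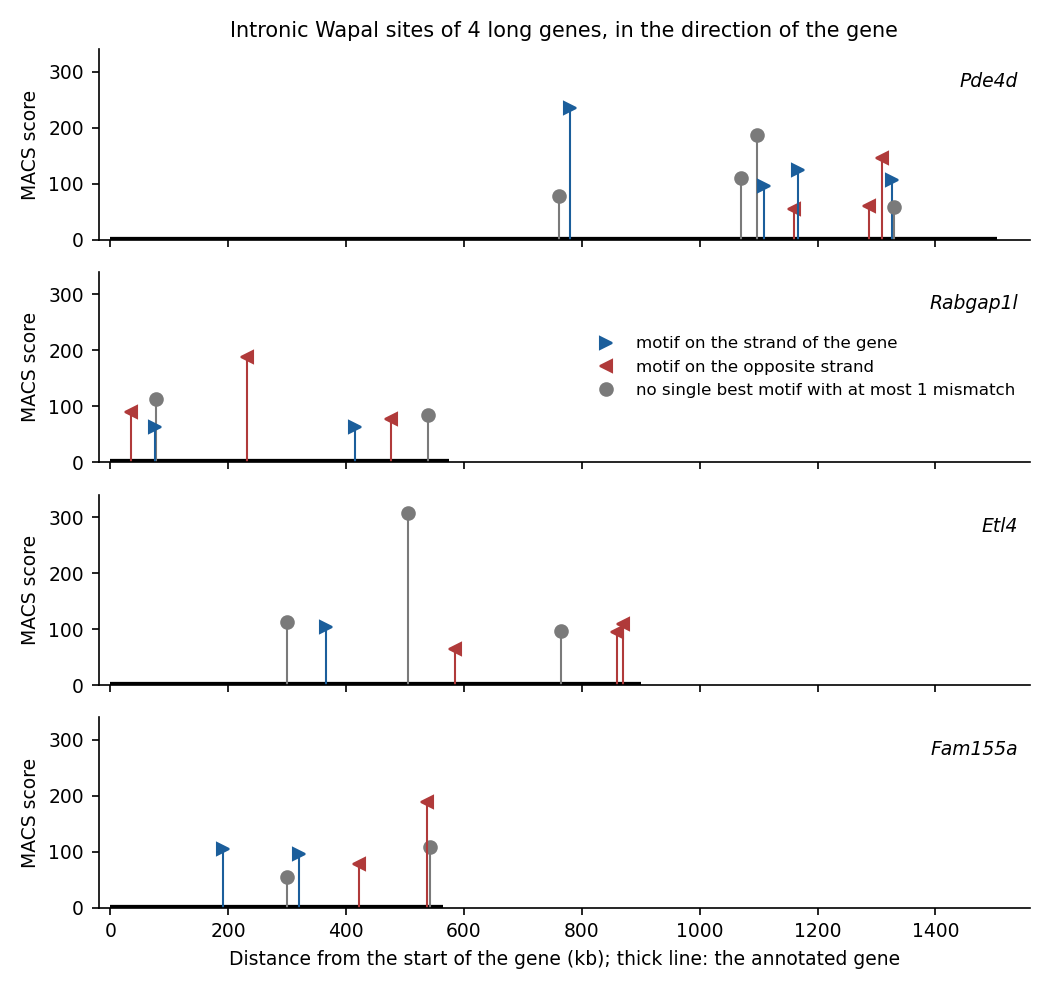
MACS score of each intronic Wapal site of Pde4d, Rabgap1l, Etl4 and Fam155a against its distance from the start of the gene in kb, with the marker pointing along (blue) or against (red) the gene by the strand of its motif. Grey circles have no single best motif with at most 1 mismatch. Pde4d has no intronic site by the rule in its first 50.6%. In Fam155a motifs along the gene come before motifs against it, and in Rabgap1l and Pde4d both kinds are interspersed.

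Hosts with 5 sites were Mpp7, Scfd2, Itpr1, Ank3, Pard3, Elmo1, Kalrn, Rora and Dpp6, and among genes of at least 1 Mb also Cdh13, Galntl6 and Dlg2. They include the polarity scaffolds Mpp7 and Pard3, the calcium release channel Itpr1, the Rac regulators Elmo1 and Kalrn, the nuclear receptor Rora and the potassium channel subunit Dpp6. Mpp7 was the densest of them with 18.7 sites per Mb, and Dlg2 the least dense with 2.67. Scores reached 275 in Pard3, 218.5 in Kalrn and 208 in Ank3. By density among genes with at least 3 sites, Uggt2 came first with 3 sites in 76.7 kb, and Pcdhgc5, of the gamma protocadherin cluster, held 4 in 113 kb. Both were chosen by density with their values known.

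Of 52 genes of at least 1 Mb, 11 held no intronic site by the rule, and the median was 1. Sites in exons or within 2 kb of a TSS are not counted for these genes. Fhit, a tumour suppressor at a common fragile site, was the longest without one, with 1579 kb of eligible intron and 1 exact motif. Il1rapl1 and Il1rapl2, synaptic receptors on the X chromosome, and Lingo2, a neuronal membrane protein, also held none and had 1 exact motif each. Erbb4, a neuregulin receptor, had no exact motif in 1045 kb. Accn1, an acid-sensing ion channel, held 8 exact motifs and no site, and Dab1, an adaptor of reelin signalling, 5 and no site. Dlg2, a postsynaptic scaffold of 1945 kb, also held 5 exact motifs and had 5 sites. Across the 2505 long genes the number of sites had a Spearman correlation of 0.295 with gene length and of 0.333 with the number of exact motifs. Genes are not independent samples, and length and motif number rise together.

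Long genes were also described by lists of gene families, where only intronic sites by the rule are counted. Scaffolds, polarity and cytoskeletal genes held a site in 26 of 34 long genes, 76.5% (60.0 to 87.6%), against 42.04% of all long genes. Their median was 2 sites per gene, where that of all long genes was 0, and their density was 3.37 per Mb (2.60 to 4.30) against 2.82. Their median length was 448.7 kb, where that of all long genes was 168.5 kb. Pard3, Ank3, Elmo1, Dlg2 and Cdh13 held 5 sites each, and Dock1, a Rac activator, was the longest with none at 503 kb. Ion channels and neurotransmitter receptors held a site in 25 of 37 long genes, 67.6%, with 5 in Dpp6, 4 in Ryr2 and Trpm3 and none in Grid1. The median length of these channel and receptor genes was 443.7 kb, and their density was 2.31 per Mb (1.69 to 3.09), against 2.82 over all long genes. Synaptic and neural adhesion genes held one in 22 of 34, or 64.7%, with 4 each in Lsamp, Nrxn3 and Tenm2 (named Odz2 in the annotation). The median length of these adhesion genes was 824 kb, and their density was 1.48 per Mb (1.07 to 2.00).

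Over all long genes 42.04% held a site, at 2.82 per Mb and with a median length of 168.5 kb. Kinases, phosphatases and cyclic nucleotide enzymes held a site in 17 of 33 long genes, at 2.91 per Mb (2.12 to 3.89). Of their 45 sites 12 were in Fgfr2 and 11 in Pde4d. The 12 of Fgfr2 and most of its length come from the gene model described above, so this density depends on that model. Matrix, cell-matrix adhesion and secreted signal genes held one in 18 of 36, at 1.79 per Mb (1.17 to 2.62) and with a median length of 294 kb. The collagens Col25a1 and Col4a2 held 2 each, as did others such as Gpc5 and Gpc6, whereas the collagens Col4a1, Col5a1 and Col11a1 held none. Chromatin and RNA regulators held one in 13 of 33, with 3 in Fto, an RNA demethylase, and 2 in Arid1b, a subunit of the BAF complex. Their density was 2.21 per Mb (1.31 to 3.50) and their median length 173 kb. Axon guidance genes held one in 10 of 27, or 37.0% (21.5 to 55.8%), at 1.403 per Mb (0.802 to 2.28), with 4 in Slit3 and 3 in Robo1. The median length of these guidance genes was 369 kb. Transcription factors and cofactors held one in 16 of 49, or 32.7% (21.2 to 46.6%), with 5 in Rora and 3 each in Sox5 and Zbtb20. Genes at common fragile sites, whose median length was 1340 kb, held a site in 17 of 20 at 1.42 per Mb (0.999 to 1.956). Some genes stand in more than 1 list, and shares were not compared at matched gene length.

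Neighbouring sites of the same gene were compared with neighbouring sites of all classes. The 544 pairs in long genes had a median distance of 61.5 kb (53.8 to 67.8), with quartiles of 19.7 and 147 kb, and 81 pairs were within 10 kb. Neighbours within 1 gene are bounded by its length, so their distance cannot be set against the 156 kb over all sites. Motif order was known for 266 pairs. In 56.4% (50.4 to 62.2%) both motifs were on the same strand, in 29.3% (24.2 to 35.1%) they lay back to back, and in 14.3% (10.6 to 19.0%) they faced each other. Over 3946 neighbouring pairs of all classes 26.7% faced each other, and the difference was -12.4 points (-16.3 to -7.49). For pairs within 100 kb, which makes the distances more alike, 9.88% faced each other in long genes and 17.1% over all classes, a difference of -7.18 points (-11.3 to -1.50). Median distances within 100 kb still differed, 30.9 kb in long genes and 40.3 kb over all classes, and the pairs of all classes include neighbouring sites in long genes. Within 10 kb, 1 of 40 pairs in long genes faced each other, with no share over all classes computed at that distance.

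**Figure D5:**
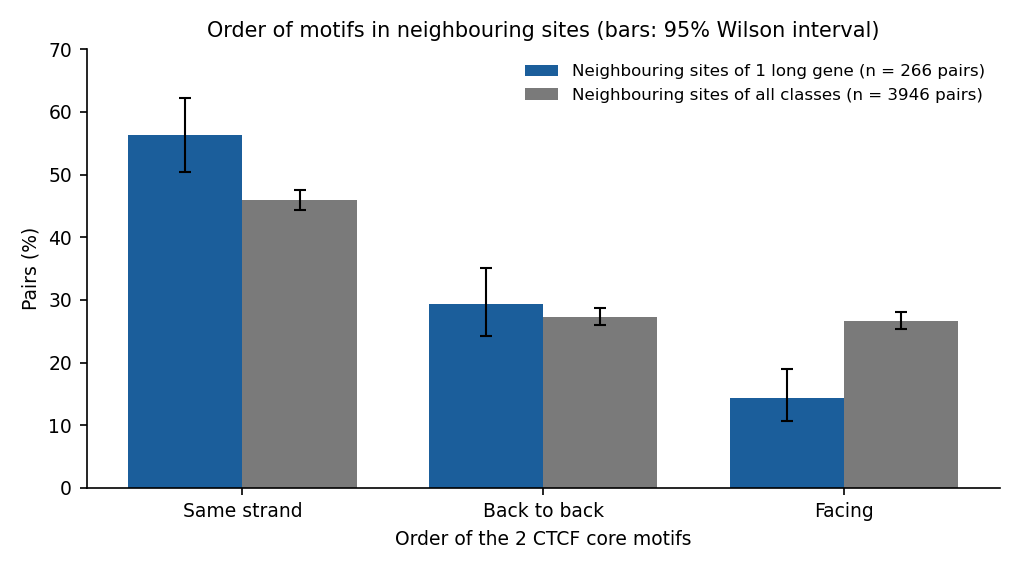
Order of the CTCF core motifs of neighbouring sites in percent of pairs, with 95% Wilson intervals, for 266 pairs within 1 long gene and 3946 pairs of all classes. Facing pairs make up 14.3% in long genes and 26.7% over all classes.

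By chromosome, density in long-gene introns ran from 2.08 per Mb on chromosome 4 to 3.91 on chromosome 8 among the autosomes, and the X chromosome held 19 sites, 0.647 per Mb (0.390 to 1.01). Autosomes together held 2.94 per Mb (2.80 to 3.09). Exact motifs on the X chromosome numbered 2.86 per Mb, and 10.7% (5.74 to 19.1%) of them lay in a site. On the autosomes together 18.9% (17.4 to 20.5%) did, with 12.4% to 26.4% on single chromosomes. Of the 266 BirA regions 18 had their centre in an intron of a long gene, and 8 of the removed Wapal regions did.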

How the data were processed

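ChIP-seq regions came from 2 FB Wapal clones, 1 BirA line and 1 input. The authors aligned the reads with Bowtie (-k 1, -m 1, so that only uniquely aligned reads were kept) to mm9 and called each ChIP against the input using MACS 1.4.2 with a p of 1e-05 as its threshold. They deposited BED lists, in which the value of each region is a MACS score, with no normalization between lists. How the regions of both clones were joined is not stated, and depth per region is unknown. Repeated bases could take few unique reads, and this was not measured here.

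Starts were converted to 1-based positions. Wapal regions sharing at least 1 bp with a BirA region were removed, and centres were placed on GENCODE M1, whose build is that of the lists. The bases that met the same rule were counted over the sequenced genome. The core motif was searched on both strands, with at most 1 mismatch. Shares have Wilson intervals, differences Newcombe intervals, densities exact Poisson intervals and medians order-statistic intervals, all at 95%. No test was made, since regions are not replicates. The sites, gene lists and settings were chosen with earlier results of these data known, and the split of genes at their midpoint and the count of genes with 1 oriented site were added after values had been seen.

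Genes named are the 15 hosts with the most sites, those of the 10 highest scores, genes of at least 1 Mb, up to 5 examples for each list, and the genes at each threshold. Ppfia2 and Kazn (high scores without a motif) and Uggt2 and Pcdhgc5 (dense genes) fall outside this rule and were named after their values were seen. Sequences follow the 10 highest scores and the host with the most sites. As the model of Gm20388 encloses other genes, Pde4d was printed in its place, chosen after its values were seen. Alternatives changed the score, gene length, TSS distance, gene set, BirA rule, merging, chromosomes and motif settings. On simulated data the motif search found 200 of 200 planted motifs, the annotation gave 11 of 11 known classes and the overlap rule 50 of 50. The analysis used Python 3.11.15, numpy 2.4.6, pandas 2.3.3, scipy 1.17.1 and matplotlib 3.10.9.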

Additional observations from a re-analysis of the deposited data

How the results depend on the processing

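A score of at least 100 left 546 sites in long-gene introns, at 0.964 per Mb and in 17.96% of long genes, with a median score of 135 and width of 821 bp, the motif in 79.3%, neighbours at a median of 103 kb and a density of 0.819 times that of shorter genes. With long genes taken from 50 kb, they held 26.1% of sites at 3.06 per Mb, in 31.1% of genes, at 0.782 times the density of shorter genes. From 200 kb there were 986 sites, 11.9% of all, at 2.53 per Mb and in 55.6% of genes, with 47.2% of motifs on the strand of the gene and neighbours at 83.5 kb. Of all sites, 17.3% still counted when centres had to lie over 5000 bp from every TSS. The share was 17.2% of all sites when the whole site had to meet the rule. The motif share was 28.4% for exact matches, 96.3% with at most 2 mismatches and 60.4% in the 200 bp around the centre. The other 69 values under the 15 alternatives stayed within the interval of the main value, or within 1.5 times it for a count. Leaving out gene models around at least 5 genes was chosen after seeing the data and moved none of the values computed for it. The difference in motif strand across the midpoint was recomputed for exact matches, the score, both gene lengths, protein-coding genes and without those gene models. It stayed between 13.7 and 20.7 points there, and no interval included 0. Under the other alternatives it was not recomputed. The distance between neighbours does not use the motif, so for exact matches only the share of facing pairs was recomputed, 17.5%. No replicate could be left out, as 1 list joins both clones. No paired analysis was possible because the result comes from no test and the list gives no value for a single clone. Depth limits which sites were called. A gene without a site held no intronic site by the rule at this threshold, and it could still hold one in an exon or near a TSS.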
